A study of Mus musculus with 24 samples.

Results

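The SLAM family is a group of immunoglobulin-like receptors on the surface of lymphocytes and other blood cells. They were read here in splenic B cells of NOD and B6 mice through every probe set annotated to a single gene among Slamf1, Slamf6, Slamf7, Slamf9, Ly9, Cd48 and Cd84. These 7 genes had 12 probe sets, of 45037 probe sets that are not array controls and 18193 genes with a probe set of their own. Slamf1 and Slamf6 had 3 probe sets each and Cd84 had 2. Slamf7, Slamf9, Ly9 and Cd48 had 1 each.

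Most SLAM receptors bind a copy of themselves on the neighbouring cell, so that lymphocytes touching one another can signal both ways. Cd48 differs, being held in the membrane by a lipid anchor and serving as ligand of Cd244a and Cd2. The tails of most members carry tyrosine motifs that recruit the adaptor SAP, encoded by Sh2d1a, and with it the kinase Fyn, or else phosphatases such as those encoded by Ptpn6 and Ptpn11. The genes lie in a cluster on chromosome 1, with Slamf9 and Slamf8 somewhat apart from the others. This cluster comes in different haplotypes in inbred strains, which differ in protein sequence and, for Slamf6, in the splice forms made. Such differences matter for reading an array, because a probe designed on one haplotype can bind the transcript of another less well.

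All animals were females aged 7 weeks, of the strains NOD/ShiLtJ (NOD), which becomes diabetic spontaneously, and C57BL/6/J (B6), which does not. Spleen cells from 8 mice of a strain were pooled, cells bearing CD3 or CD11b were removed, and 6 subsets were sorted by IgM, CD21/35, CD24, B220, CD93 and CD23. The subsets are labelled T1, T2FO, T3, FO, T2MZ and MZ, standing for transitional, follicular (FO) and marginal zone (MZ) stages. The sort was done in 2 independent experiments per strain, which gave 4 pools, 12 groups of 2 arrays and 24 arrays. No mouse was treated or genetically altered, and each group stands for pooled mice rather than for single animals.

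The values are log2 values centred on each probe set's own median over the 24 arrays, so a value of 1 means 2 times the median array and the level of one gene cannot be set against that of another. Array medians lay between -0.04 and 0.06, and no pair of arrays was identical (highest correlation 0.886). The beta-actin 5′ control, which reports how far the labelled RNA reaches towards the start of the transcript, ran from -4.04 to -3.27 in 6 B6 arrays, from -1.36 to -0.77 in 4, and at 0.42 and 0.47 in the remaining pair. NOD arrays had -0.54 to 0.79. The 6 low arrays are 1 of each B6 group: replicate 1 of FO and MZ and replicate 2 of the others. The subset labels of NOD are open to doubt, since the NOD arrays labelled T1 had the lowest signal for Cd93 (-1.89 in both), a protein used to sort transitional cells, and for Cr2, which encodes CD21 and marks marginal zone cells, a signal (1.24 and 1.16) near or above that of the B6 MZ arrays (1.23 and 0.49). The mean of the B cell marker genes was -0.94 to -0.15 in B6 and -0.0032 to 0.39 in NOD. This shift moved with strain, and its part in the strain differences given here was not tested. Marker lists of T cells, macrophages, dendritic cells, NK cells, plasma cells and erythroid cells together had 73 probe sets, of which limma called 0 between strains over subsets and 7 had an unadjusted p under 0.05. Under single labels 7 of 17 macrophage probe sets were called higher in NOD in FO (41.2%, against 2.88% of all probe sets called in either direction), and 5 of 14 plasma cell probe sets higher in T2FO (35.7%, against 2.58% in either direction). In T1 1 of 8 NK cell probe sets was called higher (12.5%) and 1 of 14 plasma cell probe sets lower (7.14%), against 6.31% in either direction. Because values are centred, the presence or absence of any marker could not be read.

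Promoter sequences are shown for the 3 genes that held called differences, since these are the regions from which their transcripts start. Each is the RefSeq window from 250 bases before the annotated start to 50 bases after it, on the plus strand of chromosome 1 in build GRCm38.p6, and capitals mark E-boxes (CANNTG, the motif bound by basic helix-loop-helix factors such as E2A). A motif of this form reads the same on both strands.
Slamf6, chr1:171917212-171917511: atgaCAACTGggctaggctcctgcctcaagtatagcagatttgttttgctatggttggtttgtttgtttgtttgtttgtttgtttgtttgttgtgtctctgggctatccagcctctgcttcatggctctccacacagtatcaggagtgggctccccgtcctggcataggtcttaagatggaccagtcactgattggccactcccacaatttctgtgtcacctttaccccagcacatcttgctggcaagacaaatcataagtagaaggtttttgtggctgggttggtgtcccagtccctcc
Slamf9, chr1:172475110-172475409: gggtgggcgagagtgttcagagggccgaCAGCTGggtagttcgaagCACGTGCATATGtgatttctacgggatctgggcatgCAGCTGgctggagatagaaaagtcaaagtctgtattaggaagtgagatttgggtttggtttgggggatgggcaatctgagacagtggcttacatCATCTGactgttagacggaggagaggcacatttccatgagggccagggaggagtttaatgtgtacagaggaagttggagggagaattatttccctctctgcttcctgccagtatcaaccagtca
Slamf1, chr1:171766882-171767181: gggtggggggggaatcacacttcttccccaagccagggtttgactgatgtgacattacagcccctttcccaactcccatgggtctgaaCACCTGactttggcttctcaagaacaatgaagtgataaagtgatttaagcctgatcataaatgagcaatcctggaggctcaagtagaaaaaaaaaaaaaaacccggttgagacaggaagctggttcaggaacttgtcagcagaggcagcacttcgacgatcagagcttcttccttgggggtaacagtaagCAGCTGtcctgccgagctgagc
Slamf9 had 5 E-boxes, of which a pair adjoins, Slamf1 had 2 and Slamf6 had 1. Of 32851 mouse promoters of the same length, 72.3% held at least 1 E-box, the median was 1 and 2.1% held 5 or more. The letters GGAA, the core of Ets factor sites, were found 5 times on either strand in Slamf9, 6 times in Slamf1 and 0 times in Slamf6, against a median of 3 over all these promoters, 96% of which held it. These sequences are those of the B6 reference, and the NOD sequence was not analysed here. A window was found for 6 of the 7 genes.

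Over the 6 subsets, 3 of the 12 probe sets differed between strains in limma on the pool means (Benjamini-Hochberg adjusted p under 0.05), against 3.02% of all probe sets. Of these 3, 1 was higher and 2 were lower in NOD, against 1.64% and 1.38% of all. The 12 arrays of a strain lay wholly to one side of those of the other for 2 of the 12 probe sets, both of Slamf6, against 2.40% of all. The median difference was -0.09 over the 12 and -0.03 over all probe sets. The 3 calls fell on 2 genes, Slamf6 and Slamf9, and Slamf6 gave a call in each direction. All 3 calls were lost with either NOD pool left out, the adjusted p by limma then being 0.152 to 0.232, while their directions remained. They were also lost (limma, adjusted p of 0.082 to 0.148) when the replicate numbers of B6 FO and MZ were crossed between the B6 pools. The B6 arrays group in that crossed way: correlations of the replicate deviations were 0.71 to 0.87 within T1, T2FO, T3 and T2MZ and between FO and MZ, and -0.62 to -0.37 across those sets. The 6 B6 arrays of low 5′ control are one side of that crossed grouping, so crossed numbers and the 5′ signal cannot be told apart. Pool means use the numbers as given, so each B6 pool mean mixes low arrays with others. The standard errors over subsets may therefore be too small.

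**Figure D1:**
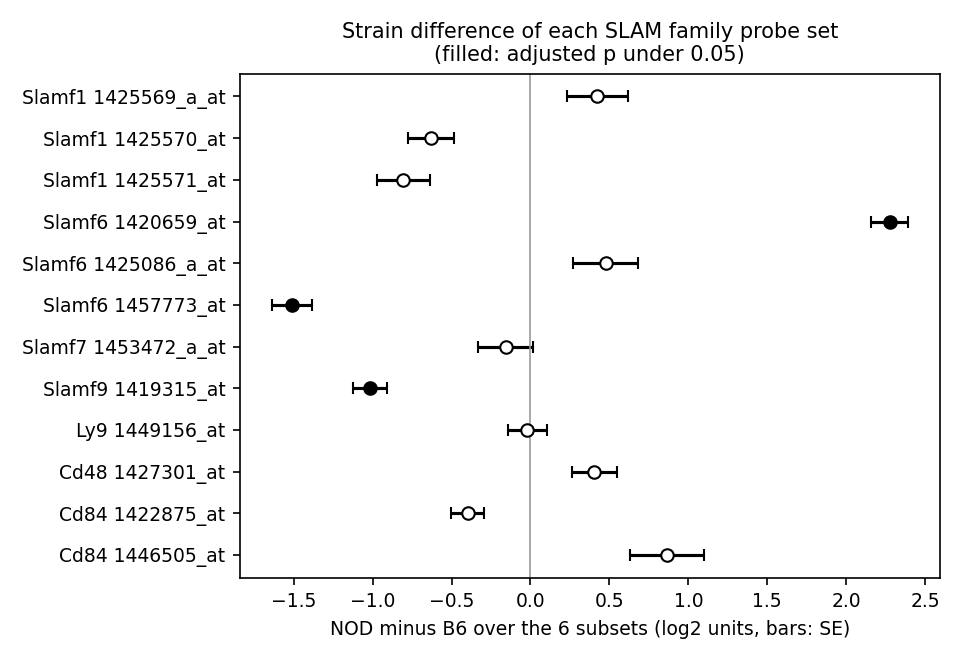
Strain difference of each SLAM family probe set, NOD minus B6 over the 6 subsets, in log2 units (x axis), with bars for the standard error from limma on 4 pool means and filled points for an adjusted p under 0.05. Slamf6 1420659_at stands far to the right at 2.27, and Slamf6 1457773_at (-1.51) and Slamf9 (-1.02) stand to the left, while the other 9 points lie between -0.81 and 0.87.

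Slamf6 encodes a self-binding receptor of T, B and NK cells, and its transcript was read by 3 probe sets that did not move together. Probe set 1420659_at was high in every NOD array and low in every B6 array. In B6 its array values were -1.89 and -1.29 in T1, -1.62 and -1.30 in T2FO, -1.40 and -0.79 in T3, -0.87 and -1.09 in FO, -1.26 and -0.60 in T2MZ, and -0.63 and -1.25 in MZ. In NOD they were 0.81 and 1.07 in arrays labelled T1, 0.60 and 0.62 in T2FO, 1.06 and 0.77 in T3, 1.31 and 1.18 in FO, 1.52 and 1.85 in T2MZ, and 1.23 and 1.28 in MZ. The strains did not overlap, with a gap from -0.60 to 0.60 between the highest B6 and the lowest NOD array. All NOD arrays lay above all B6 arrays in 1.51% of all probe sets.

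The difference over subsets for 1420659_at was 2.27 ± 0.12 (SE, 2 pools per strain as numbered), or 4.84-fold, with an adjusted p of 0.0138 by limma. It was called higher in NOD under each of the 6 labels, from 2.01 ± 0.28 in T3 (limma, adjusted p = 0.0014) to 2.62 ± 0.28 in T2MZ (limma, adjusted p = 0.000109). The difference did not vary among the labels beyond the spread of arrays (limma F test, adjusted p = 1.00). Within B6 the group means ran from -1.59 ± 0.43 (SD, n = 2) in T1 to -0.93 ± 0.47 in T2MZ, and neighbours in that order overlapped or lay closer than their spread. Within NOD the highest mean was 1.69 ± 0.23 in arrays labelled T2MZ and the lowest 0.61 ± 0.02 in T2FO, but neither strain's subsets differed by the limma F test (adjusted p of 0.782 in B6 and 0.447 in NOD). The 2 B6 arrays whose 5′ control was like that of NOD had -1.09 (FO) and -1.25 (MZ), which is 2.34 and 2.51 below the NOD means of the same labels, so the difference was as large against these arrays. By 5′ control the 6 low B6 arrays had -1.30 to -0.60 (median -0.83) and the 4 middle ones -1.89 to -1.26 (median -1.51).

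Probe set 1457773_at of the same gene ran the other way. Its B6 arrays had 0.27 and 0.91 in T1, 0.22 and 0.79 in T2FO, 0.01 and 0.68 in T3, 1.44 and 1.10 in FO, 0.23 and 0.92 in T2MZ, and 0.71 and 0.04 in MZ. NOD arrays had -1.46 and -1.30 under the label T1, -0.53 and -1.50 under T2FO, -0.82 and -0.01 under T3, -1.31 and -1.35 under FO, -0.23 and -0.23 under T2MZ, and -1.31 and -0.78 under MZ. Every NOD array lay below every B6 array, but barely so: replicate 1 of B6 T3 and replicate 2 of the NOD arrays labelled T3 were 0.0090 and -0.0090. All NOD arrays lay below all B6 arrays in 0.890% of all probe sets.

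The difference over subsets for 1457773_at was -1.51 ± 0.13, or 2.85-fold lower in NOD, with an adjusted p of 0.0220 by limma. Among single labels it was called in FO (-2.60 ± 0.39, limma adjusted p = 0.00179) and T1 (-1.97 ± 0.39, limma adjusted p = 0.0056), and the T1 call was lost without replicate 2 of B6 (adjusted p = 0.0667) or replicate 1 of NOD (0.0606). Beside the FO difference, 7 of 17 macrophage probe sets were called higher in NOD FO, and the macrophage marker mean was 1.68 and 1.63 in those NOD arrays against -0.37 and 0.42 in B6 FO. Their part in it was not tested. Differences in T2FO (-1.52), MZ (-1.42), T2MZ (-0.80) and T3 (-0.76) did not pass limma's threshold. The variation among labels was not called either (limma F test, adjusted p = 0.513). Against the B6 arrays with a 5′ control like that of NOD the differences were -2.43 in FO and -1.09 in MZ. By 5′ control the 6 low B6 arrays had 0.68 to 1.44, the 4 middle ones 0.01 to 0.27 and the pair like NOD 1.10 (FO) and 0.04 (MZ). The low arrays overlapped the others only through that FO array. The remaining B6 arrays all lay below every low array, so this probe set also moved with the 5′ control within B6.

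The third probe set, 1425086_a_at, whose suffix marks probes shared by several transcripts of a gene, overlapped between strains. B6 arrays had a lowest, median and highest value of -1.30, -0.40 and 0.65, and NOD arrays -0.49, 0.29 and 0.67. The difference of 0.48 ± 0.21 did not pass the threshold (limma, adjusted p = 0.329). Its B6 values fell with the 5′ control, being -1.30 to -0.72 in the 6 low arrays, -0.07 to 0.50 in the 4 middle ones, and 0.41 and 0.65 in the pair like NOD. Without the 6 low arrays the strain difference was -0.18.

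Slamf6 is therefore among 18 of 9010 genes with several probe sets, or 0.200%, for which 1 probe set was called higher and another lower in NOD over subsets. The mean of its 3 probe sets differed by 0.41 between strains and was not called (limma, adjusted p = 0.105). How much of either difference comes from the amount of transcript, from its splice forms or from how well the transcripts of each strain bind the probes was not tested. The probe sequences were not available here.

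**Figure D2:**
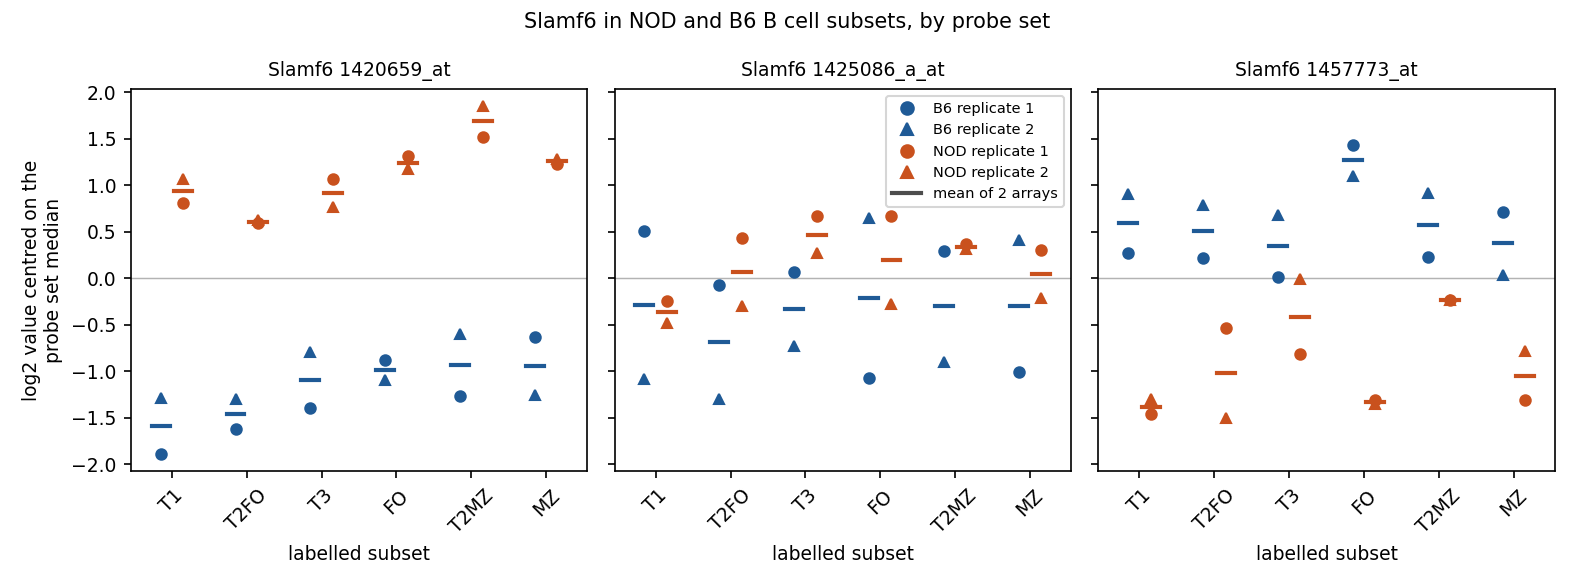
Centred log2 value (y axis) of the 3 Slamf6 probe sets in each labelled subset (x axis), with 1 point per array, circles for replicate 1, triangles for replicate 2 and bars for the mean of 2 arrays. NOD (orange) lies above B6 (blue) throughout for 1420659_at and below it for 1457773_at, while the strains overlap for 1425086_a_at.

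Slamf9, a short-tailed relative that lacks the tyrosine motifs of most members, was the receptor that varied most over B6 maturation. Its probe set 1419315_at had 3.14 and 2.59 in B6 T1, 2.18 and 2.08 in T2FO, 0.62 and 0.83 in T3, 0.51 and 0.44 in T2MZ, -0.14 and -0.48 in FO, and -0.32 in both MZ arrays. The T1 and T2FO arrays stood clear of all others in either strain, and T1 was above T2FO with no overlap. T1 exceeded FO by 3.18 ± 0.20, or 9.05-fold, in B6 (limma, adjusted p = 3.70e-06). Of the 12 probe sets it was the 1 called in that comparison, against 1.01% of all probe sets, and the 1 called for any difference among B6 subsets (limma F test, adjusted p = 4.58e-06), against 1.41%.

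In NOD the range was narrower. Arrays labelled T2FO had 0.77 and 0.65, T3 0.03 and 0.59, MZ -0.10 and -0.25, T1 -0.40 and -0.03, FO -0.44 and -0.48, and T2MZ -0.78 and -0.64. NOD subsets differed among themselves (limma F test, adjusted p = 0.00753), and Slamf9 was the 1 member called there, against 1.77% of all probe sets. The label T1 exceeded FO by 0.24 ± 0.20 in NOD, which was not called (limma, adjusted p = 1.00). Over both strains the group means fell in the order B6 T1 (2.87 ± 0.38, SD, n = 2), B6 T2FO (2.13 ± 0.07), B6 T3 (0.72 ± 0.15), NOD T2FO (0.71 ± 0.09), B6 T2MZ (0.47 ± 0.05) and NOD T3 (0.31 ± 0.40), with the others below 0. B6 T3 and NOD T2FO overlapped, NOD T3 overlapped B6 T2MZ, and among the lower groups NOD arrays labelled T2MZ (-0.71 ± 0.10) lay below the rest.

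Over subsets Slamf9 was lower in NOD, with a difference of -1.02 ± 0.11, or 2.02-fold (limma, adjusted p = 0.0283). The strains overlapped, the highest NOD array (0.77) standing below the B6 arrays of T1 and T2FO and 1 of T3. The strain difference varied among labels (limma F test of the interaction, adjusted p = 0.00023), and Slamf9 was the 1 member called there, against 1.35% of all probe sets. It was called in T1 (-3.08 ± 0.20, limma adjusted p = 5.13e-07), T2FO (-1.42, limma adjusted p = 0.00147) and T2MZ (-1.19, limma adjusted p = 0.00464), of which the last was lost without replicate 1 of the NOD arrays so labelled (adjusted p = 0.0605). Differences in T3 (-0.41), FO (-0.15) and MZ (0.15) were not called. Under the label T2FO the plasma cell marker mean was 1.33 and 1.89 in NOD against -0.45 and 0.05 in B6. Under T1 all 10 marginal zone probe sets were called, 9 of them higher in NOD, against 6.31% of all probe sets. Of 18 immature B cell probe sets 7 were called under T1 (38.9%), all lower in NOD. Under T2MZ the marginal zone marker mean was -0.66 and -0.28 in NOD against 0.90 and 0.50 in B6. The follicular marker mean there was 0.73 and 0.76 in NOD against 0.01 and -0.16 in B6. The part of these markers in the Slamf9 differences was not tested.

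The transcript of Cd93 followed a like order in B6. Its probe set 1419589_at had 3.19 and 2.92 in T1, 2.70 and 2.68 in T2FO and 2.45 and 2.76 in T3, against -0.01 and 0.02 in FO and -0.74 and -0.80 in MZ. Unlike Slamf9 it was about as high in B6 T3 as in T2FO. In NOD its highest arrays were 1 labelled T2FO (0.29) and those labelled T3 (0.01 and 0.14), and its lowest those labelled T1. Over subsets Cd93 differed by -2.26 ± 0.09 (limma, adjusted p = 0.0086). The groups called T1 in the 2 strains thus lay at opposite ends of the Cd93 values, and the part of this mismatch in the Slamf9 difference was not tested.

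**Figure D3:**
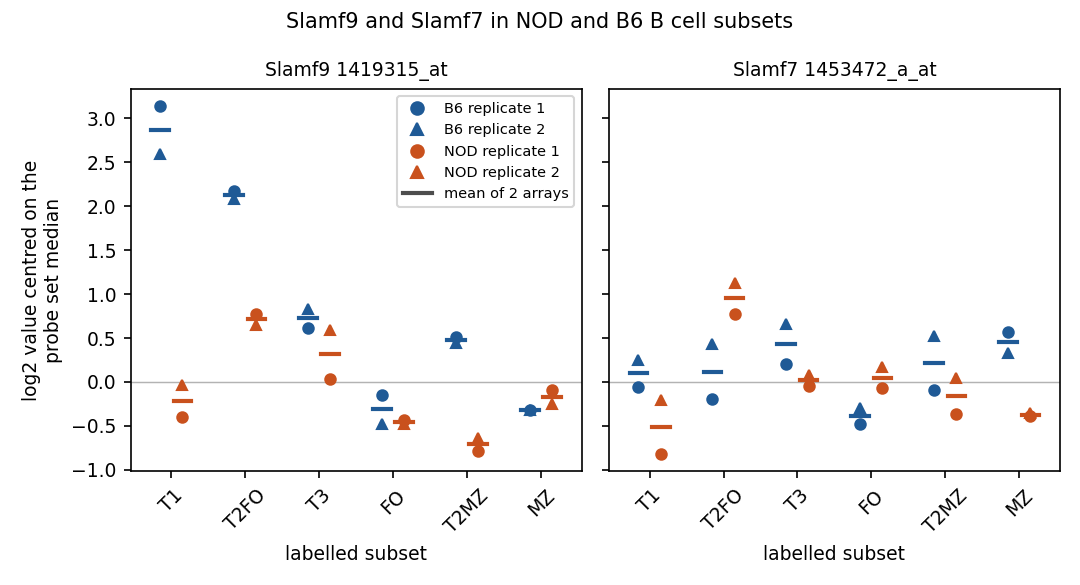
Centred log2 values (y axis) of Slamf9 and Slamf7 in each labelled subset (x axis), 1 point per array with bars for the mean of 2 arrays. Slamf9 falls in B6 (blue) from 3.14 and 2.59 in T1 to about -0.32 in MZ and stays at or below 0.77 in NOD (orange), and Slamf7 is highest in the NOD arrays labelled T2FO.

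Slamf1, a self-ligand found on activated lymphocytes and the founding member of the family, was lower in MZ than in FO of B6 by 1 of its 3 probe sets. Probe set 1425570_at had 0.80 and 1.02 in B6 FO and -1.23 and -0.59 in B6 MZ, with T1 at 0.07 and 0.50, T2FO at 0.25 and 0.51, T3 at 0.46 and 0.59, and T2MZ at -0.06 and 0.34. The MZ arrays lay below every other B6 array, and FO above every other. The difference of MZ minus FO was -1.82 ± 0.36 (limma, adjusted p = 0.0347), and it was the 1 member called in that comparison, against 0.564% of all probe sets. The call did not survive leaving out any 1 of the 4 arrays (adjusted p of 0.0579 to 0.27), although the difference remained between -2.14 and -1.50. The other Slamf1 probe sets gave -1.21 ± 0.32 (1425571_at, limma adjusted p = 0.165) and -1.22 ± 0.54 (1425569_a_at, limma adjusted p = 0.762). In NOD the differences between the same labels were 0.16, 0.29 and -0.06 and none was called, and the variation of the strain difference among labels was not called for 1425570_at (limma F test, adjusted p = 0.148).

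Markers of marginal zone cells, taken as the mean of their 6 genes, were 1.55 and 1.72 in the B6 MZ arrays and highest, at 2.60 and 2.43, in the NOD arrays labelled T1. The latter also had the lowest group mean for 1425570_at, with arrays at -1.62 and -1.16, while NOD arrays labelled MZ had marker means of 1.25 and 1.41 and Slamf1 values of -0.24 and -0.16. The follicular marker mean, of 3 genes, was 0.59 and 0.20 in NOD MZ, -1.11 and -1.15 in B6 MZ, and -0.75 and -1.51 in NOD T1. Fcer2a, the gene of the sort marker CD23, had 0.25 and 0.11 in NOD MZ and -2.46 and -2.59 in B6 MZ by probe set 1422122_at. The macrophage marker mean was 1.51 in replicate 2 of B6 MZ and -0.24 in replicate 1, and Slamf1 was lower in the latter. The part of these markers in the Slamf1 values was not tested.

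Between strains, Slamf1 was called lower in NOD under the label T1 by 1425570_at (-1.67 ± 0.36, limma adjusted p = 0.0108) and 1425571_at (-1.44 ± 0.32, limma adjusted p = 0.0126). Both calls were lost without replicate 2 of B6 T1 (0.0941 and 0.131) or replicate 1 of the NOD arrays (0.134 and 0.0505), and the second also without replicate 2 of NOD (0.113). Under the label FO 1425571_at was called (-1.30 ± 0.32, limma adjusted p = 0.0411), a call lost without replicate 1 of B6 (0.299) or either NOD replicate (0.057 and 0.372). Its FO arrays had 1.24 and 0.55 in B6 and -0.09 and -0.72 in NOD, with no overlap, and the macrophage marker mean of those NOD arrays was 1.68 and 1.63. Replicate 2 of B6 T1 and replicate 1 of B6 FO are arrays of low 5′ control. By that control 1425571_at ran from -0.41 to 1.24 in the low B6 arrays (median 0.76) and from 0.01 to 0.42 in the middle ones (median 0.32). The pair like NOD had -0.21 and 0.55. Over subsets 1425570_at (-0.63 ± 0.15, limma adjusted p = 0.115) and 1425571_at (-0.81 ± 0.17, limma adjusted p = 0.0951) were not called. Probe set 1425569_a_at leaned the other way, at 0.42 ± 0.19 (limma, adjusted p = 0.363), and its 2 B6 FO arrays, at 0.06 and 1.85, lay far apart.

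**Figure D4:**
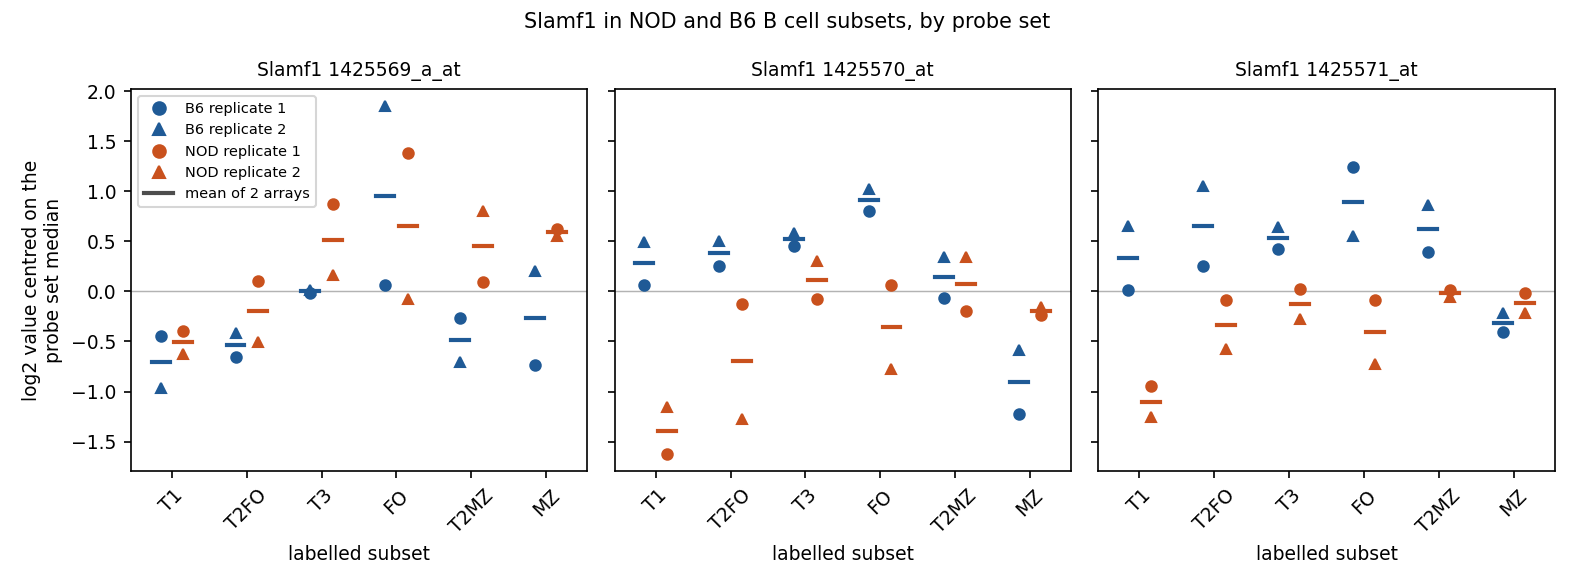
Centred log2 values (y axis) of the 3 Slamf1 probe sets in each labelled subset (x axis), 1 point per array with bars for the mean of 2 arrays. For 1425570_at B6 (blue) peaks in FO (0.80 and 1.02) and is lowest in MZ (-1.23 and -0.59), and NOD (orange) has its lowest mean in the arrays labelled T1.

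Slamf7, a self-ligand known from plasma cells and NK cells, had its highest values, 0.78 and 1.13, in the NOD arrays labelled T2FO. All other arrays lay at or below 0.66. The mean of the 7 plasma cell markers was also highest in those arrays, at 1.33 and 1.89, against -1.03 to 0.89 elsewhere. The mean of the 6 NK cell markers was low there, at -0.27 and -0.22. It was highest, at 1.45, in replicate 2 of B6 T2FO, where Slamf7 was 0.43. The part of either list in the Slamf7 values was not tested. Neither the differences among NOD subsets (limma F test, adjusted p = 0.0666) nor the strain differences in T2FO (0.83 ± 0.27, limma adjusted p = 0.151) and, in the other direction, MZ (-0.82 ± 0.27, limma adjusted p = 0.158) passed the threshold. In B6 Slamf7 was lowest in FO (-0.48 and -0.29) and higher in MZ (0.57 and 0.33), but MZ minus FO, 0.84 ± 0.27, was not called (limma, adjusted p = 0.368). Over subsets the strains differed by -0.16 ± 0.17 (limma, adjusted p = 0.752).

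Cd48, the lipid-anchored ligand of Cd244a and Cd2, overlapped between strains. Its B6 arrays had a lowest, median and highest value of -1.08, -0.37 and 0.50 and its NOD arrays -0.45, 0.13 and 0.55. The difference over subsets was 0.41 ± 0.14 (limma, adjusted p = 0.239), and no comparison called it. In the 6 B6 arrays of low 5′ control it ran from -1.08 to -0.36, and in the other B6 arrays from -0.38 to 0.50.

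Ly9, a self-binding receptor of T and B cells, gave no called strain difference over all arrays but fell into 3 tiers within B6. Its B6 values were -1.16 to -0.26 in the 6 arrays of low 5′ control, 0.37 to 0.66 in the 4 middle arrays, and 2.10 (FO) and 1.41 (MZ) in the pair whose control was like that of NOD. These tiers did not overlap. NOD arrays ran from -0.49 to 0.55, below the highest tier. The difference over subsets was -0.02 ± 0.13 (limma, adjusted p = 0.969). With the 6 low arrays left out, which leaves 1 array in each B6 group, it was -0.86. A covariate for the gap between 5′ and 3′ actin controls gave -1.27 (limma, adjusted p = 0.000183). That fit took the 24 arrays as independent although they come from 4 pools, so its adjusted p may be too small. The 5′ control was lower in most B6 arrays than in any NOD array, so the covariate cannot be fully told apart from strain.

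Cd84, another self-binding receptor, showed the reverse order in 1 of its probe sets. Probe set 1446505_at had -0.41 to 0.54 in the 6 low B6 arrays, -1.64 to -1.42 in the 4 middle ones, and -1.03 and -1.60 in the pair like NOD, while NOD arrays had -0.52 to 1.02. The B6 arrays with the lowest 5′ control thus overlapped NOD, and the other B6 arrays did not. The difference over subsets was 0.87 ± 0.23 and not called (limma, adjusted p = 0.148). Without the 6 low arrays it was 1.62. With the covariate, and again the 24 arrays taken as independent, it was 1.93 (limma, adjusted p = 1.02e-06). Probe set 1422875_at had -0.14 to 0.54 in B6 and -0.70 to 0.27 in NOD, a difference of -0.40 ± 0.10 that was not called (limma, adjusted p = 0.140).

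Among the 12 probe sets, Slamf6 1425086_a_at, Ly9 and Cd84 1446505_at separated the 6 low B6 arrays from the other 6 with no overlap, against 12.6% of all probe sets. With all 24 arrays taken as independent 6 of the 12 probe sets were called over subsets, 1 higher and 5 lower in NOD. The share of all probe sets called in that setting is not given here, so the count is not read as a trait of the members. Leaving out the 6 low arrays leaves 1 array in each B6 group, which limma then assumes to vary like the NOD arrays. No weight is therefore put on calls from that fit, and its count over subsets is given only among the alternatives below.

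**Figure D5:**
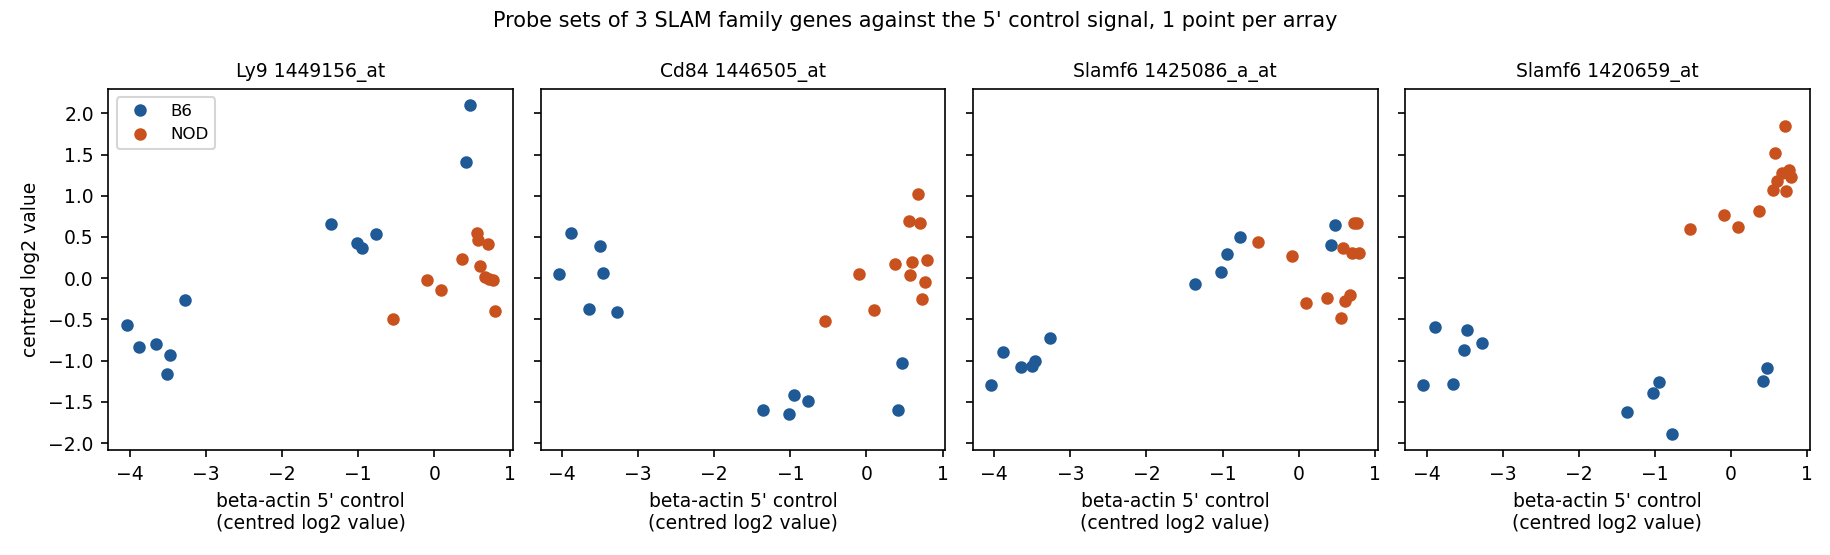
Centred log2 value (y axis) of 4 probe sets against that of the beta-actin 5′ control (x axis), 1 point per array, B6 in blue and NOD in orange. Ly9 and Slamf6 1425086_a_at rise and Cd84 1446505_at falls from the 6 B6 arrays at -4.04 to -3.27 to the other B6 arrays, while Slamf6 1420659_at stays at or below -0.60 in every B6 array.

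Counts of called members by label were small, and arrays that bear the same label in the 2 strains may not be the same stage. Under the label T1, 5 of the 12 probe sets were called, 1 higher and 4 lower in NOD, against 6.31% of all probe sets. That count fell to 2 without replicate 2 of B6 T1 or replicate 1 of the NOD arrays. FO had 3 calls (1 higher and 2 lower), against 2.88%. T2FO had 2 (1 higher and 1 lower), against 2.58%, and 4 without replicate 1 of its NOD arrays. T2MZ had 2 (1 higher and 1 lower), against 2.73%, and 1 without replicate 1 of its NOD arrays. T3 and MZ had 1 each, higher in NOD, against 1.72% and 2.52%. The call present under every label was Slamf6 1420659_at. Within NOD, MZ minus FO gave 0 calls by limma, against 0.122%, and 0 members at an unadjusted p under 0.05. T1 minus FO in NOD gave 0, against 1.14%, and 3 members at an unadjusted p under 0.05, all of them Slamf1 probe sets.

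Of 22 genes listed as partners of the SLAM receptors (other family members, ligands, adaptors, kinases and phosphatases), 18 had a probe set of their own, 37 probe sets in all. Over subsets 2 of the 37 were called, both higher in NOD and 5.41% of the list, against 3.02% of all probe sets. The first was Cd244a, the SLAM family receptor that binds Cd48. Its probe set 1449991_at was 0.30 to 1.56 in NOD and -2.31 to -0.30 in B6, without overlap, and differed by 2.17 ± 0.28 (limma, adjusted p = 0.0412). A further Cd244a probe set, 1426120_a_at, was -0.01 to 0.80 in NOD and -0.84 to 0.01 in B6 and was not called. The second was Ptpn11, the phosphatase SHP2 that binds SLAM tails, whose probe set 1427699_a_at differed by 1.11 ± 0.09 (limma, adjusted p = 0.0220). Another Ptpn11 probe set, 1451225_at, was called lower in NOD under the label MZ (-0.81 ± 0.18, limma adjusted p = 0.0261).

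Sh2d1a, which encodes SAP, was not called, with -0.12 to 0.25 in B6 and -0.41 to 0.18 in NOD. Slamf8 was not called either, at -0.13 to 0.08 in NOD and -0.11 to 0.47 in B6. Under the label T1, 7 partners were called: Fyn (1.50 ± 0.26), Cd244a (2.76 ± 0.51), Dok2 (0.80 ± 0.17) and Nfatc1 (1.81 ± 0.39) were higher in NOD, and Vav1 (-1.10 ± 0.29), Cd2 (-1.59 ± 0.44) and Ptpn6 (-0.56 ± 0.16) lower. They were 18.9% of the list against 6.31% of all probe sets. Under the other labels 1 to 3 partners were called, 2.70% to 8.11% of the list, against 1.72% to 2.88% of all probe sets.

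Among 24 listed neighbours of the cluster on chromosome 1, 22 had 48 probe sets, and over subsets Cd244a was the 1 called (2.08%, against 3.02% of all). The median difference of these 48 was 0.07, against -0.03 over all probe sets. Under the label T1, 8 were called, 16.7% against 6.31%. They were 3 probe sets of Fcgr2b, the inhibitory receptor for antibody, higher in NOD by 1.13 to 1.22, Cd244a, and in the other direction Vangl2 (-1.53 ± 0.21 and -1.40 ± 0.31), Igsf9 (-1.22 ± 0.28) and Tagln2 (-1.41 ± 0.35).

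The genes whose group means most resembled those of each member were found by Pearson correlation over the 12 groups, which share arrays, pools and the 5′ differences, so the values are descriptive. For Slamf6 1420659_at they were Ehd3 (r = 0.985) and Irf3 (0.983), and within the 6 B6 groups the correlations were 0.751 and 0.580. For Slamf9 they were Tanc1 (0.975) and Ifng (0.972), with 0.979 and 0.983 within B6. For Slamf1 1425570_at they were Dmp1 (0.948) and Stk26 (0.944), and for Slamf7 Cox6a2 (0.945) and Zg16 (0.942). Ly9 was most like Snx27 (0.936) and Gmcl1 (0.913), Cd48 like Ugcg (0.924) and Hsd17b11 (0.921), and Cd84 1446505_at like Tbccd1 (0.971) and Ankhd1 (0.971).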

How the data were processed

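RNA of sorted B cell subsets was measured on Affymetrix mouse arrays after a labelling primed from the poly(A) tail. Per the submitters' processing notes, RMA was used by the authors to make the deposited log2 values. The version of RMA was not given in the sources used here. No source names the base of the logarithm either, and 2 was assumed. Each probe set was found centred on its median over the 24 arrays, so no filter on dim probe sets could be set. Of 45101 probe sets 64 were controls, 34945 had 1 gene, 932 several and 9160 none in the platform's annotation, and all 7 members were matched to RefSeq by gene number.

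Group comparisons used limma 3.58.1 in R 4.3.3 on 45037 probe sets, with 1 mean for each of 12 groups, contrasts, eBayes and Benjamini-Hochberg adjustment over all of them. A call is an adjusted p under 0.05. The comparison of strains over subsets used limma on 4 pool means, each the average of the 6 arrays of 1 strain and replicate number as given. Both fits were run on simulated data with independent errors for every array. Those data held no pool, crossed numbering or 5′ effects, so they cannot show how the fits behave under these. The number of arrays limits the precision. Same-numbered arrays were checked by the correlation of their deviations from group means. In B6 it was 0.71 to 0.87 within T1, T2FO, T3 and T2MZ and between FO and MZ, but -0.62 to -0.37 across these sets, so the numbers do not pair all subsets as given. In NOD it was -0.04 to 0.51. Every member probe set is named, and other genes by a fixed rule: partners and neighbours called over subsets with the smallest adjusted p, and the 2 genes most alike. Partners and neighbours called under single labels, the uncalled Sh2d1a and Slamf8, and marker genes were named outside that rule. The members and lists were chosen with earlier results of these data known. Alternatives covered blocks, a 5′ control covariate, scaling, gene means and arrays left out. Promoters were read with Python 3.11.15 and figures drawn with matplotlib 3.10.9.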

Additional observations from a re-analysis of the deposited data

Results flagged for a closer look

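The strain difference of Slamf9 varied among the labelled subsets by the test of the interaction itself (limma F test over all 24 arrays, adjusted p = 0.00023). NOD minus B6 was -3.08 ± 0.20 under the label T1, -1.42 under T2FO and -1.19 under T2MZ, and -0.41 in T3, -0.15 in FO and 0.15 in MZ. With each array left out in turn the adjusted p of this interaction ran from 0.000199 to 0.00258. The value rests on the NOD subset labels, against which the Cd93 and Cr2 transcripts run.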

How the results depend on the processing

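Counts here are of the 12 probe sets called by limma. Unless given, the share of all probe sets called under the same alternative is not shown. A change of count is therefore not read as particular to the members. For NOD against B6 over subsets the count of 3 became 6 with the 24 arrays taken as independent, with the pool as a random block and with a covariate for the 5′ to 3′ control gap, 1 with gene means in place of probe sets, and 7 without the 6 B6 arrays of lowest 5′ signal, an alternative chosen after seeing the data. It was 0 with the replicate block and 0 with the B6 FO and MZ numbers crossed, which called 18 and 59 of all probe sets against 1361 in the report, and 0 to 4 with 1 pool left out. The number of a pool pairs unrelated pools of the 2 strains, so no weight was put on that block.

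With the replicate block within strain T2FO had 4 calls in place of 2, MZ 2 in place of 1, the differences among NOD subsets 2 in place of 1, and the interaction 2 in place of 1. The block moved no other count of calls by over 1.5 times. With the 5′ control covariate the counts were 6 in T2FO, 3 in T3, 5 in FO, 4 in MZ, 2 among B6 subsets, 2 for MZ minus FO and 2 for T1 minus FO of B6, 5 among NOD subsets and 3 for the interaction. Leaving out the 6 B6 arrays of lowest 5′ signal, an alternative chosen after seeing the data, left 1 array in each B6 group. Its counts for the comparisons of this paragraph are therefore not given, and no weight is put on its count over subsets. Gene means gave 1 in T1, 1 in T2FO, 0 in T3, 0 in FO, 0 in MZ and 2 among NOD subsets. With the arrays compared fitted alone the counts were 2 in T1, 0 in T2FO, T3, FO, T2MZ and MZ, 0 for MZ minus FO and for T1 minus FO of B6, and 3 among NOD subsets, with fewer arrays to estimate the spread. Quantile normalization gave 2 in MZ, 0 for MZ minus FO of B6 and 3 among NOD subsets, and a random pool block 2 among NOD subsets. Leaving out 1 array gave 2 to 5 in T1, 2 to 4 in T2FO, 2 to 3 in FO, 1 to 2 in T2MZ, 0 for MZ minus FO of B6, 1 to 2 for T1 minus FO of B6 and 1 to 2 for the interaction. The cause of these changes was not tested.

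Directions over subsets turned for probe sets that were not called: Slamf1 1425569_a_at to -0.040 with the covariate and -0.34 as a gene mean, Slamf6 1425086_a_at to -0.47 with the covariate and -0.18 without the low arrays, Slamf7 to 0.054 with the covariate and 0.014 without the low arrays (-0.32 to 0.0051 with 1 pool left out, above 0 without B6 replicate 2), Ly9 to between -0.12 and 0.077 with 1 pool left out (above 0 without B6 replicate 2 or NOD replicate 1), Cd48 to -0.062 with the covariate, and Cd84 1422875_at to 0.23 as a gene mean. Slamf6 1457773_at, which was called, turned to 0.41 as a gene mean over subsets, 0.16 in T1 and 0.012 in FO, since its gene's mean holds 1420659_at. Slamf6 1420659_at kept its direction in every alternative run.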
